A study of Mus musculus with 6 samples.

Results

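DNA replication and mitosis genes are the genes that a cell transcribes when it copies its chromosomes in S phase and divides in G2 and M phase. The 49 genes described here, 27 of S phase and 22 of G2/M, were chosen by symbol, and each was taken as the row of the expression table whose mouse Ensembl ID maps to that symbol. All 49 were found among the 56980 genes of the table. RNA was measured in tumor-associated macrophages (TAMs) to compare their gene expression with and without C5aR, the receptor of the complement fragment C5a. The 2 groups were WT and C5aR-/- female mice of the C57BL/6 strain, bought at 6 to 8 weeks of age, and both received an intraperitoneal injection of ID8 cells, a mouse ovarian cancer line. Tumors were taken 2 months later, and live CD45+CD11b+Ly6G-F4/80+ cells were sorted from them by flow cytometry. The study's methods describe poly(A) RNA of these sorted cells, whereas the extraction protocol in the labels speaks of RNA from tissue, and which of them was sequenced is not settled here. There were 3 libraries per group, WT TAM 1 to 3 and C5aR-/- TAM 1 to 3, and values are given below in that order. Per the paper, the knockout affects C5aR in every cell type, not macrophages alone, and all libraries came from tumor-bearing mice. The labels do not say whether each library came from a separate mouse. The paper counts the RNA-seq samples of each group in mice, but in a number that differs from the libraries used here, so the p-values are read as the spread between libraries, which may be technical.

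Expression is given in TPM, a transcript abundance scaled by the length of the transcript and to the same total in every library. Sequencing depth cannot be read from TPM and is unknown, and the error given is the spread between libraries. Differences are C5aR-/- minus WT on the log2(TPM + 1) scale, with the standard error (SE) and the adjusted p from limma (two-sided, Benjamini-Hochberg over all genes tested). Adding 1 understates the difference of genes with low TPM. Genes that reached 1 TPM in 3 or more of the 6 libraries were tested, 14776 in all, and the 49 members were among them.

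Before a cell copies its DNA, the MCM helicase is loaded onto replication origins by CDC6 and CDT1, and it is later activated with CDC45 and the GINS complex. Transcription of these genes is driven by E2F factors once cyclin-dependent kinases (CDKs) have inactivated the RB family, and later in the cycle the MuvB complex, with B-MYB and FOXM1, drives the genes of mitosis. Macrophages of tissues and tumors can divide locally, and tumor cells divide as well, so these genes are read as markers of cycling cells in whichever cells are sampled. The paper measured EdU in spleen and tumor macrophages by flow cytometry. It reports no obvious effect of C5aR deficiency on macrophage proliferation. EdU labeling and RNA level are different measures, and they were not compared here.

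C5ar1, which encodes C5aR, served as a check of the labels. It had 86.5, 37.3 and 16.2 TPM in WT TAMs against 0.38, 0.11 and 0.05 TPM in C5aR-/- TAMs. The groups did not overlap, in the direction the labels give, although the WT libraries differed widely among themselves. C5ar1 reached the 1 TPM needed for testing in WT libraries alone. The difference was -5.04 (SE 0.56, adjusted p = 0.0666), and without C5aR-/- TAM 1 the adjusted p was 0.0221 (0.0221 to 0.329 over all alternatives).

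Macrophage markers also differed within both groups. The summed TPM of 12 macrophage genes, led by Lyz2, was 9033, 3767 and 2655 in WT TAMs and 8897, 5104 and 2614 in C5aR-/- TAMs. It was highest in TAM 1 of either group and lowest in TAM 3 of either group. Genes listed for epithelial tumor cells, led by Krt19, summed to 1908, 1844 and 2039 TPM in WT TAMs and to 2211, 2163 and 1669 TPM in C5aR-/- TAMs. The keratin genes Krt8, Krt18 and Krt19 carried these sums in all 6 libraries, although the sort required CD45, while the other 5 genes had mean values under 10 TPM. The sums overlapped between groups. Krt8 was the 1 gene of them tested that did not overlap, higher in C5aR-/- TAMs by 0.62. Of these 8 epithelial genes, Pax8 was listed at 0 in at least 1 library. The epithelial sums do not tell tumor cells from other cells with keratins, and mesothelial genes were abundant too (Wt1 at a mean of 370 TPM). Erythroid genes, led by Hbb-bs, summed to 2526, 7262 and 361 TPM in WT TAMs and to 26558, 333 and 1227 TPM in C5aR-/- TAMs, so that C5aR-/- TAM 1 stood apart. In bulk samples of this kind, fewer cells of a type and less RNA per cell cannot be told apart, and which cells carried the RNA described below was not tested.

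The replication and mitosis genes were mostly higher in C5aR-/- TAMs, by less than 2-fold each. The mean of log2(TPM + 1) was higher in C5aR-/- TAMs for 46 of the 49 genes (93.9%), against 44.5% of all genes tested. The median difference was 0.33, against -0.05 over all genes. The differences ran from -0.06 for Cenpf to 0.72 for Cenpa. By phase, 27 of 27 S phase genes were higher, with a median of 0.47, and 19 of 22 G2/M genes were higher, with a median of 0.30. The 3 genes below 0 were Top2a, Cenpe and Cenpf. With quantile normalization or median-of-ratios scaling, Top2a and Cenpe were above 0 and 48 of 49 genes were higher. Leaving out 1 library at a time gave medians over the 49 genes between 0.24, without C5aR-/- TAM 3, and 0.52, without C5aR-/- TAM 1.

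No member passed an adjusted p of 0.05 in limma, and the smallest adjusted p was 0.17, for Cenpa. Of all genes tested, 0% combined an adjusted p under 0.05 with a 2-fold difference or more. With that fold and an unadjusted p under 0.05, 0 members passed in either direction, where 2.13% of all genes passed as higher and 2.84% as lower. These were 314 higher and 419 lower genes (386 and 371 with quantile normalization). At an unadjusted p under 0.05 and any fold change, 13 members (26.5%) were higher and 0 lower, against 6.06% and 8.37% of all genes. In 23 members (46.9%) all 3 C5aR-/- libraries lay above all 3 WT libraries, and in 0 members below, against 8.84% and 12.5% of all genes. For 1 gene, groups of 3 that do not overlap have a two-sided exact permutation p of 0.1, the smallest that 3 against 3 can give. The members share their regulation through the cell cycle and are not independent of each other, so these counts are descriptions.

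The count of 13 moved with single libraries. It was 27 without C5aR-/- TAM 1, 5 without WT TAM 1 and 6 without WT TAM 2, where 10.1%, 4.16% and 3.28% of all genes were higher at that p. Without C5aR-/- TAM 1, 356 genes of the whole table had an adjusted p under 0.05 and differed by 2-fold or more. In the same fit 2 members had an adjusted p under 0.05 at any fold change, Mcm7 (0.0311, and 0.0311 to 0.642 over all alternatives) and Mcm3 (0.0442, and 0.0442 to 0.711), at differences of 0.95 and 0.77. Both were under 2-fold, so 0 members met the limits of the 356 genes. The share of all genes at that adjusted p and any fold change is not given here, so these 2 stand without a background.

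**Figure D1:**
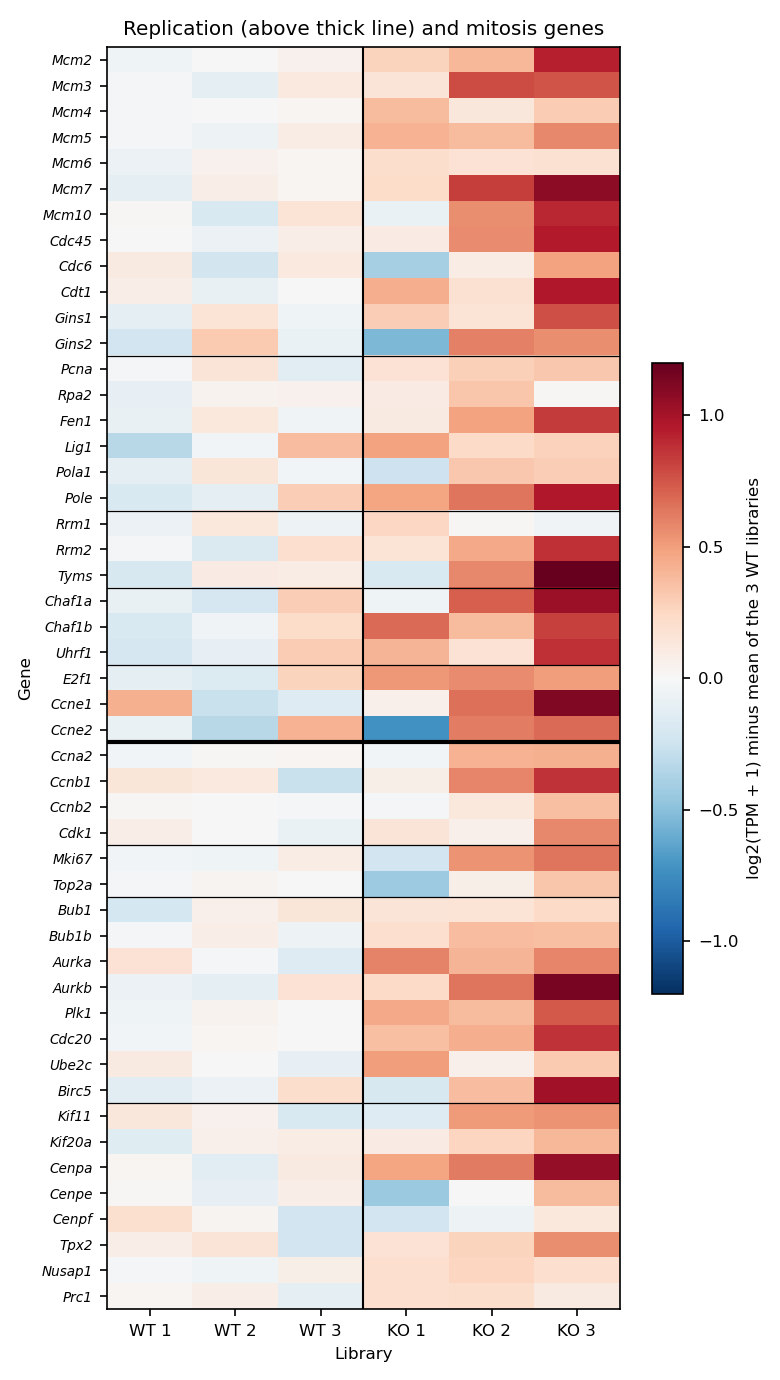
Heat map of the 49 genes in the 6 libraries, with each gene's log2(TPM + 1) minus its mean over the 3 WT libraries in color, S phase genes above the thick line and G2/M genes below it, thin lines between roles. C5aR-/- TAM 3 (KO 3) held the highest value of 34 genes, and C5aR-/- TAM 1 (KO 1) lay below all WT libraries for 9.

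The WT libraries lay close together and the C5aR-/- libraries were spread out. The median SD of log2(TPM + 1) over the 49 genes was 0.13 among WT libraries and 0.30 among C5aR-/- libraries, where all genes tested had 0.21 and 0.30. The summed TPM of the 49 genes was 1669, 1732 and 1715 in WT TAMs and 1912, 2159 and 2567 in C5aR-/- TAMs. The mean of log2(TPM + 1) over the genes averaged 4.69 ± 0.04 in WT libraries and 5.06 ± 0.25 in C5aR-/- libraries (SD, n = 3 each). All 3 C5aR-/- sums lay above the 3 WT sums. C5aR-/- TAM 3 was the highest library for 34 genes, C5aR-/- TAM 2 for 8, C5aR-/- TAM 1 for 6 and WT TAM 1 for 1, which was Cenpf. For all genes tested, C5aR-/- TAM 3 was the highest library in 23.9%, against 69.4% of the 49.

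The distance from WT differed between the knockout libraries. C5aR-/- TAM 1 was above all WT libraries for 30 genes, C5aR-/- TAM 2 for 40 and C5aR-/- TAM 3 for 45, where the shares of all genes were 29.7%, 26.6% and 31.9%. The median deviation of the 49 genes from the WT mean was 0.16, 0.38 and 0.58 on the log2 scale. In C5aR-/- TAM 1, 9 genes were below all WT libraries (18.4%, against 36.3% of all genes), namely Cdc6, Gins2, Pola1, Ccne2, Ccnb2, Mki67, Top2a, Birc5 and Cenpe. In C5aR-/- TAM 2 and 3, 0 genes were below all WT libraries, against 32.9% and 38.3% of all genes.

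S phase and G2/M genes kept a similar balance. The S phase genes summed to 791, 861 and 861 TPM in WT TAMs and to 968, 1097 and 1269 TPM in C5aR-/- TAMs. The G2/M genes summed to 878, 872 and 854 TPM and to 944, 1061 and 1298 TPM. The ratio of G2/M to S phase TPM was between 0.97 and 1.11 over the 6 libraries, with WT TAM 1 highest and C5aR-/- TAM 2 lowest. By mean over the 6 libraries, Pcna, Cdk1 and Top2a were at 100 TPM or more, and Cdc6, Gins1, Ccne1 and Ccne2 were under 10 TPM. The median of these means was 30.1 TPM, against 16.5 TPM over all genes tested.

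All 12 origin licensing and helicase genes were higher, with a median difference of 0.46, 8 genes without overlap and 5 at an unadjusted p under 0.05. For this and the other roles below, the shares of all genes are 44.5% higher, 8.84% higher without overlap and 6.06% higher at that p. Mcm7, a subunit of the ring-shaped helicase and the most abundant gene of this group, had 65.4, 74.9 and 71.9 TPM in WT TAMs against 82.6, 126 and 150.2 TPM in C5aR-/- TAMs. All knockout libraries were above all WT libraries, with C5aR-/- TAM 2 and 3 far above TAM 1. The difference was 0.71 (SE 0.23, adjusted p = 0.246), a mean TPM 1.69-fold that of WT. Mcm5, another subunit and the gene with the smallest p of the S phase genes, was at 34.2, 33.2 and 36.8 TPM in WT TAMs and at 46.6, 45.3 and 52.1 TPM in C5aR-/- TAMs. Here the 3 knockout libraries were close to each other and apart from WT, at a difference of 0.45 (SE 0.13, adjusted p = 0.205). The other 4 MCM subunits of the ring, Mcm2, Mcm3, Mcm4 and Mcm6, also had groups that did not overlap, with differences from 0.19 for Mcm6 to 0.57 for Mcm3. The loader genes Cdt1 and Cdc6 had differences of 0.53 (0.31 without C5aR-/- TAM 3) and 0.06. Cdc6 was below 0 without WT TAM 2 or without C5aR-/- TAM 3 (-0.15 to 0.29 over all alternatives).

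All 6 genes of polymerases, clamp and fork processing were higher, with a median of 0.29, 2 without overlap and 1 at an unadjusted p under 0.05. Pcna, the sliding clamp that holds polymerases on DNA, was the most abundant of the 49 genes, at 165, 186 and 152 TPM in WT TAMs and 189, 203 and 209 TPM in C5aR-/- TAMs. The highest WT library lay just under the lowest knockout library. Its difference was 0.26 (SE 0.13, adjusted p = 0.406). Pole, the catalytic subunit of the leading-strand polymerase, had 7.83, 8.31 and 11.3 TPM in WT TAMs against 12.97, 14.6 and 18.5 TPM in C5aR-/- TAMs. The groups did not overlap, and the difference of 0.69 (SE 0.21, adjusted p = 0.236) was the largest in this group. The single-strand binding gene Rpa2, the flap nuclease gene Fen1, the ligase gene Lig1 and the polymerase gene Pola1 overlapped between groups, with differences from 0.12 for Pola1 (0.025 to 0.31 over all alternatives) to 0.47 for Fen1 (0.29 to 0.66).

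The 3 nucleotide supply genes were all higher (median 0.50), and all of them overlapped between groups. Rrm1, the large subunit of ribonucleotide reductase, was at 85.8, 98.9 and 86.5 TPM in WT TAMs and at 107, 91.0 and 87.7 TPM in C5aR-/- TAMs. Only C5aR-/- TAM 1 was above all WT libraries, and the difference of 0.07 (SE 0.13, adjusted p = 0.841) was -0.014 without that library. Rrm2, the small subunit, whose level follows S phase, was at 21.03, 18.95 and 24.8 TPM in WT TAMs and at 24.2, 29.8 and 40.3 TPM in C5aR-/- TAMs. C5aR-/- TAM 1 lay within the WT range and the other two knockout libraries above it, at a difference of 0.50 (SE 0.22, adjusted p = 0.363), and of 0.31 without C5aR-/- TAM 3. Tyms, which encodes thymidylate synthase, had the same arrangement at a difference of 0.54 (0.90 without C5aR-/- TAM 1 and 0.20 without C5aR-/- TAM 3).

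All 3 genes of chromatin assembly and maintenance methylation were higher, with a median of 0.57, 1 without overlap and the same number at an unadjusted p under 0.05. Chaf1b, a subunit of the CAF-1 complex that places histones on new DNA, had 10.4, 11.6 and 14.1 TPM in WT TAMs against 19.7, 15.8 and 21.8 TPM in C5aR-/- TAMs. The groups did not overlap, and C5aR-/- TAM 1 was higher than TAM 2 here, at a difference of 0.62 (SE 0.19, adjusted p = 0.235). Uhrf1, which guides the maintenance methyltransferase to new DNA, was at 25.7, 27.6 and 37.0 TPM in WT TAMs and at 39.9, 33.7 and 55.4 TPM in C5aR-/- TAMs. C5aR-/- TAM 2 was below WT TAM 3, so the groups overlapped (difference 0.49, SE 0.23, adjusted p = 0.393, and 0.29 without C5aR-/- TAM 3).

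The G1/S regulators E2f1, Ccne1 and Ccne2 were all higher (median 0.53), and 1 of the 3, E2f1, had an unadjusted p under 0.05. E2f1, a transcription factor that activates S phase genes, had 8.19, 7.84 and 10.9 TPM in WT TAMs against 13.2, 13.7 and 13.1 TPM in C5aR-/- TAMs. The knockout libraries were nearly equal and above all WT libraries, at a difference of 0.53 (SE 0.18, adjusted p = 0.274). Both cyclin E genes overlapped between groups and were low, and Ccne2, at a difference of 0.19, was below 0 without C5aR-/- TAM 2 or without C5aR-/- TAM 3 (-0.06 to 0.65 over all alternatives).

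**Figure D2:**
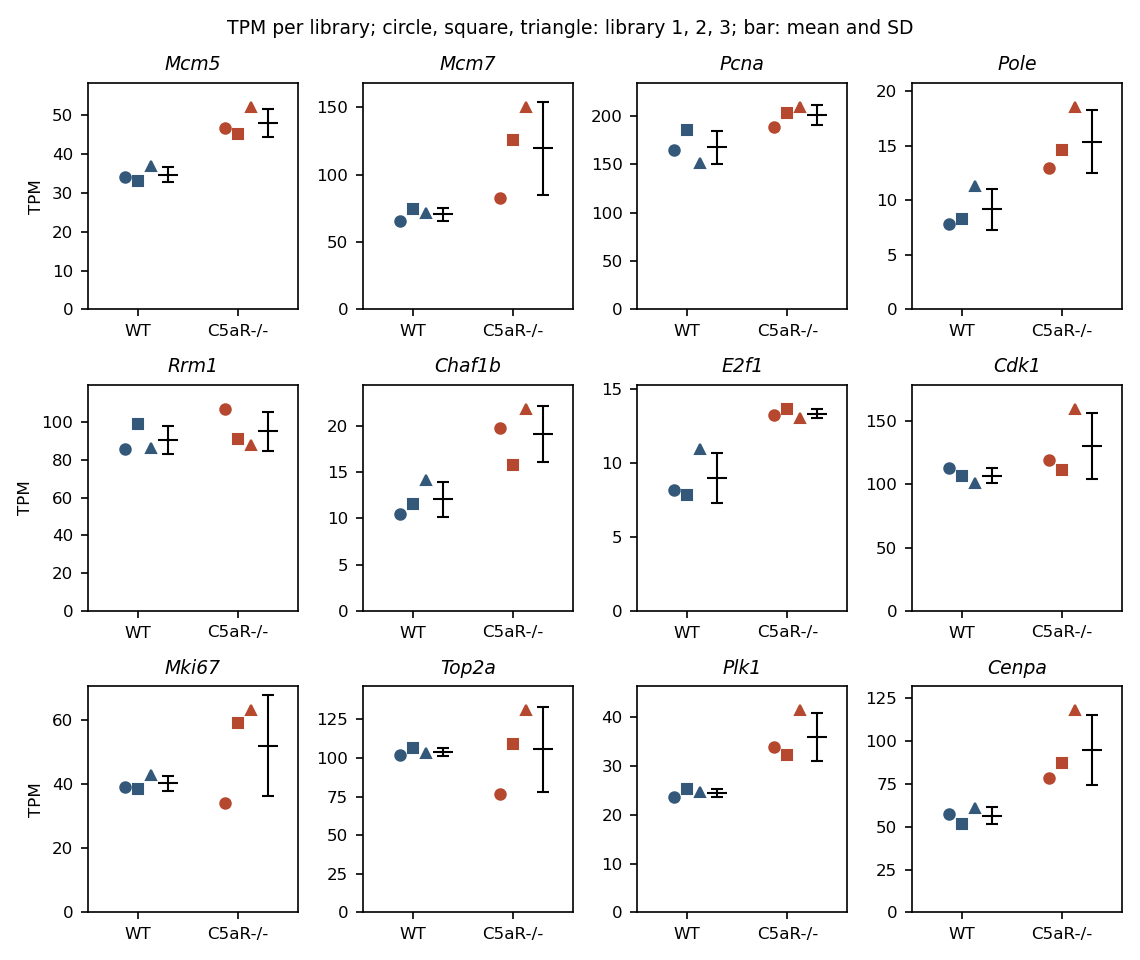
TPM of 12 of the genes in each library, WT in blue and C5aR-/- in red, with circles, squares and triangles for library 1, 2 and 3 and bars for the mean and SD of 3 libraries. E2f1 and Mcm5 show knockout libraries close together above WT, while Mki67 and Top2a show C5aR-/- TAM 1 below WT.

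The 3 mitotic cyclin genes and Cdk1 were all higher (median 0.27), and all 4 overlapped between groups. Cdk1, the kinase that drives entry into mitosis, was at 113, 106 and 101 TPM in WT TAMs and at 119, 111 and 159.7 TPM in C5aR-/- TAMs. C5aR-/- TAM 2 lay within the WT range and C5aR-/- TAM 3 far above it, at a difference of 0.26 (SE 0.16, adjusted p = 0.513), and of 0.11 without C5aR-/- TAM 3. Ccnb1, which encodes the partner cyclin B1, had 36.8, 36.1 and 27.4 TPM in WT TAMs against 34.8, 50.4 and 61.2 TPM in C5aR-/- TAMs. C5aR-/- TAM 1 lay within the WT range here (difference 0.51, SE 0.24, adjusted p = 0.390, and 0.33 without C5aR-/- TAM 3). Ccna2 and Ccnb2 had differences of 0.27 (0.19 to 0.42 over all alternatives) and 0.16 (0.05 to 0.24).

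Mki67 and Top2a, both used as markers of cycling cells, overlapped between groups. Mki67, which encodes the Ki-67 antigen, had 39.1, 38.6 and 42.8 TPM in WT TAMs against 34.0, 58.8 and 63.0 TPM in C5aR-/- TAMs. C5aR-/- TAM 1 was below all WT libraries and the other two knockout libraries above them, at a difference of 0.32 (SE 0.24, adjusted p = 0.596). This was 0.59 without C5aR-/- TAM 1 (adjusted p = 0.075), 0.20 without C5aR-/- TAM 2 and 0.15 without C5aR-/- TAM 3. Top2a, the topoisomerase that untangles sister chromatids, was at 102, 106 and 103 TPM in WT TAMs and at 76.6, 109 and 131 TPM in C5aR-/- TAMs. The arrangement was the same, and the mean difference was -0.01 (SE 0.20, adjusted p = 0.988). Its sign changed under quantile normalization (0.035) and under median-of-ratios scaling (0.037), and it was 0.20 without C5aR-/- TAM 1.

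All 8 genes of mitotic kinases, the spindle checkpoint and anaphase promotion were higher, with a median of 0.46, 6 without overlap and 4 at an unadjusted p under 0.05. Those 4 were Plk1, Aurka, Cdc20 and Aurkb. Ube2c, the ubiquitin-conjugating enzyme of the anaphase-promoting complex, was at 90.3, 83.8 and 78.1 TPM in WT TAMs and at 119.6, 87.7 and 104.5 TPM in C5aR-/- TAMs. C5aR-/- TAM 1 was highest and C5aR-/- TAM 2 was within the WT range, at a difference of 0.29 (SE 0.15, adjusted p = 0.428), and of 0.19 without C5aR-/- TAM 1. Plk1, a kinase of mitotic entry and spindle assembly, had 23.6, 25.3 and 24.7 TPM in WT TAMs against 34.0, 32.2 and 41.4 TPM in C5aR-/- TAMs. The groups were well apart, at a difference of 0.52 (SE 0.15, adjusted p = 0.207). The Aurora kinase genes Aurka and Aurkb had differences of 0.53 and 0.67 (0.44 without C5aR-/- TAM 3 for Aurkb), and Cdc20, an activator of the anaphase-promoting complex, of 0.56. The checkpoint genes Bub1 and Bub1b differed by 0.18 (0.08 without WT TAM 1) and 0.31. Birc5, a partner of Aurora B, differed by 0.40 with overlapping groups (0.69 without C5aR-/- TAM 1 and 0.09 without C5aR-/- TAM 3).

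Among motor, kinetochore and spindle genes 6 of 8 were higher, with a median of 0.24, 5 without overlap and 1 at an unadjusted p under 0.05. Cenpa, the histone H3 variant that marks centromeres, had 57.2, 51.3 and 60.8 TPM in WT TAMs against 78.6, 87.3 and 118 TPM in C5aR-/- TAMs. All knockout libraries were above all WT libraries, and the difference of 0.72 (SE 0.18, adjusted p = 0.17) was the largest of the 49 genes on the log2(TPM + 1) scale. Its mean TPM was 1.676-fold that of WT, below Ccne1 (1.86-fold), Mcm7 (1.69-fold) and Pole (1.680-fold). The kinetochore genes Cenpe and Cenpf, by contrast, had differences of -0.02 and -0.06 with overlapping groups. Neither sign was stable, as Cenpe was above 0 under both scalings (-0.23 to 0.19 over all alternatives) and Cenpf without WT TAM 1 or without C5aR-/- TAM 1 (-0.17 to 0.042). The spindle genes Tpx2, Nusap1, Prc1 and Kif20a had groups that did not overlap, with differences from 0.17 for Prc1 to 0.33 for Tpx2 (0.22 without WT TAM 3).

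**Figure D3:**
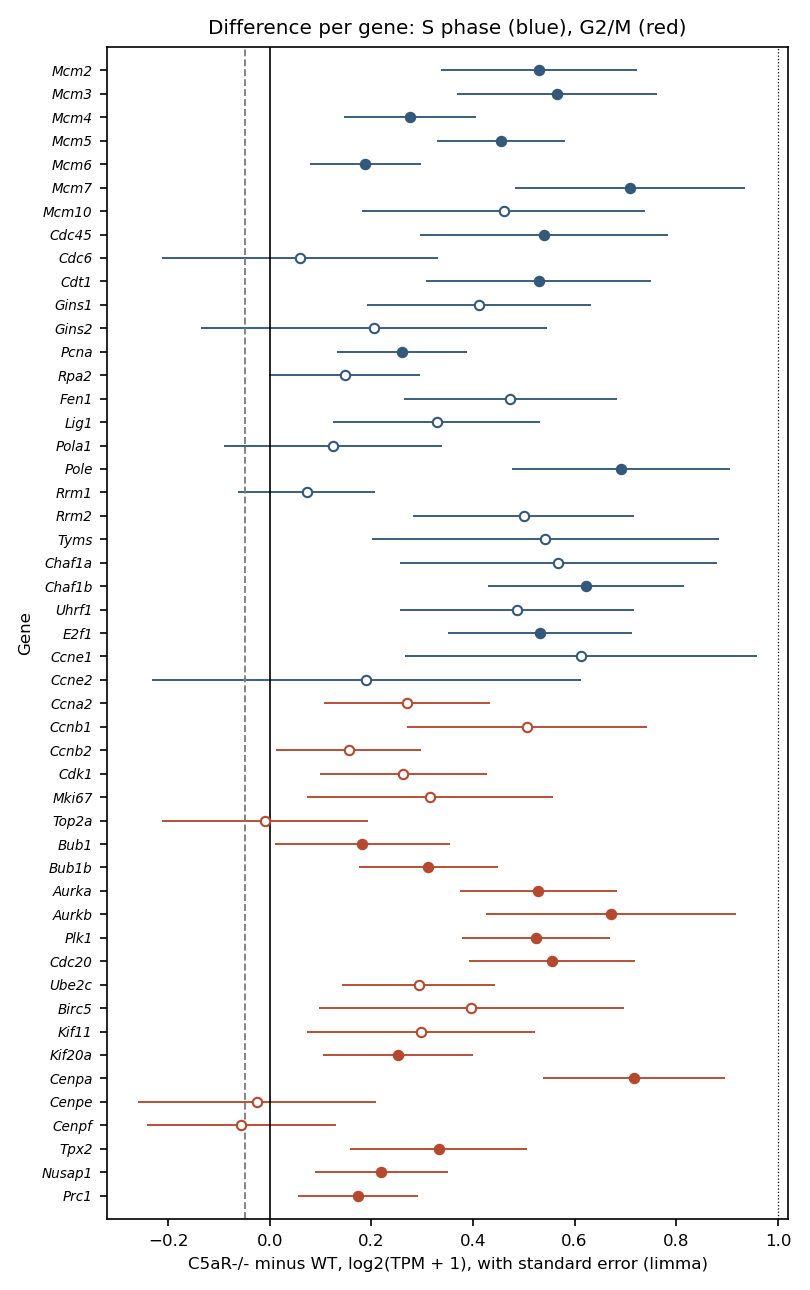
Difference of each of the 49 genes between C5aR-/- and WT TAMs on the log2(TPM + 1) scale with its standard error, S phase genes in blue and G2/M genes in red. Filled points mark the 23 genes whose groups did not overlap, the dashed line is the median of all genes tested (-0.05) and the dotted line a 2-fold difference.

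Beyond the 49, a list of 119 other cell cycle genes was examined, of which 118 were in the table and 117 tested. Lin54 was not analysed here. The list had 87 genes higher and 30 lower in C5aR-/- TAMs, with a median of 0.25, and 0 passed an adjusted p of 0.05. At an unadjusted p under 0.05 and any fold change, 18 were higher and 3 lower (15.4% and 2.56%, against 6.06% and 8.37% of all genes). The 18 became 42 without C5aR-/- TAM 1 (10.1% of all genes) and 6 to 12 without any other library (3.28% to 5.48% of all genes). Groups did not overlap in 26 higher genes (22.2%) and 5 lower genes (4.27%), against 8.84% and 12.5% of all genes. In C5aR-/- TAM 1, 2 and 3 they deviated from the WT mean by a median of -0.04, 0.25 and 0.51 (log2). The other replication genes were higher in 28 of 35 cases (median 0.12) and the other mitosis genes in 45 of 52 cases (median 0.31). The 5 lower genes without overlap were Pttg1, Cdkn2a, Tfdp2, Lin52 and Rbl2, of which the first 3 had an unadjusted p under 0.05.

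With an unadjusted p under 0.05 and a difference of 2-fold or more, Asf1b and Hmgb2 were higher and Cdkn2a was lower. These were 1.71% and 0.855% of the list, below the 2.13% and 2.84% of all genes. Cdkn2a reached the 1 TPM needed for testing in WT libraries alone, and it did not pass with quantile normalization. Asf1b, a histone chaperone of replicating chromatin, had 13.2, 13.1 and 13.8 TPM in WT TAMs against 14.7, 33.5 and 44.6 TPM in C5aR-/- TAMs. Hmgb2, a chromatin protein of cycling cells, was at 98.7, 85.9 and 103 TPM in WT TAMs and at 101, 267 and 383 TPM in C5aR-/- TAMs. In both genes C5aR-/- TAM 1 was near WT and the other two knockout libraries were far above. The differences were 1.02 for Asf1b (SE 0.38, adjusted p = 0.304) and 1.18 for Hmgb2 (SE 0.46, adjusted p = 0.317, and 0.78 without C5aR-/- TAM 3). Without C5aR-/- TAM 1 the adjusted p was 0.021 for Asf1b (0.021 to 0.706 over all alternatives) and 0.0177 for Hmgb2 (0.0177 to 0.729). With C5aR-/- TAM 2 or with C5aR-/- TAM 3 left out, 0 of these list genes passed the unadjusted threshold with that fold change (5.05% and 4.47% of all genes). There were 1, 1 and 2 without WT TAM 1, 2 and 3 (5.54%, 3.84% and 4.98% of all genes). Without C5aR-/- TAM 1 there were 6 (5.13%, against 8.57% of all genes).

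Orc6 was picked once its values were known. This subunit of the origin recognition complex had 44.2, 45.5 and 54.6 TPM in WT TAMs against 32.1, 216 and 317 TPM in C5aR-/- TAMs. C5aR-/- TAM 1 was below WT and the other two knockout libraries many times above it (difference 1.43, SE 0.79, adjusted p = 0.455). Without C5aR-/- TAM 1 it was 2.43 (adjusted p = 0.0162, and 0.0162 to 0.786 over all alternatives), and the lowest difference over the alternatives was 0.79. Orc6 and Asf1b lie on chromosome 8 between Ddx39 and Heatr3 (GRCm38, 83715177 to 88172027), a stretch picked with its values known. The 63 genes tested there deviated from the WT mean by a median of -0.22, 1.42 and 1.67 (log2) in the 3 knockout libraries. Hmgb2 lies on the same chromosome outside that stretch. Of the 49 members, 3 are on chromosome 8 (Mcm5, Gins2 and Cdt1) and 0 in the stretch, and the 49 are spread over 18 chromosomes. Pttg1, which encodes securin, the inhibitor of separase, was picked in the same way. Unlike most mitosis genes it was lower in C5aR-/- TAMs, at 61.1, 57.0 and 61.2 TPM against 82.8, 90.0 and 86.7 TPM in WT TAMs. Its difference was -0.53 (SE 0.11, adjusted p = 0.133).

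Of the G1 cyclin and CDK genes, which act before replication starts, 1 of 6 was higher, with a median of -0.06 and 0 without overlap. Ccnd1, which encodes cyclin D1, was at 107, 96.2 and 118 TPM in WT TAMs and at 119, 90.4 and 109 TPM in C5aR-/- TAMs (difference -0.01, and 0.034 under both scalings). Ccnd2 was at 41.8, 46.7 and 35.9 TPM in WT TAMs and at 10.1, 35.6 and 76.2 TPM in C5aR-/- TAMs, so that the knockout libraries held both the lowest and the highest value (difference -0.42, and 0.33 without C5aR-/- TAM 1). Ccnd3 was at 98.2, 95.3 and 109 TPM in WT TAMs and at 125, 82.5 and 78.6 TPM in C5aR-/- TAMs (difference -0.11, and -0.32 to 0.014 with 1 library left out). Among the kinases that these cyclins activate, Cdk4 was at 164, 195 and 169.8 TPM in WT TAMs and at 116, 169.7 and 173 TPM in C5aR-/- TAMs, at a difference of -0.22 (-0.04 without C5aR-/- TAM 1). Cdk6, the other partner of D cyclins, was at 22.6, 17.98 and 22.6 TPM in WT TAMs and at 21.8, 37.7 and 64.7 TPM in C5aR-/- TAMs. It was the gene of this group with a positive difference (0.82, SE 0.37, adjusted p = 0.375, and 0.44 without C5aR-/- TAM 3), and C5aR-/- TAM 1 lay within the WT range. Cdk2, the partner of cyclin E, was at 24.6, 23.6 and 26.1 TPM in WT TAMs and at 25.2, 21.5 and 27.0 TPM in C5aR-/- TAMs. Its difference was -0.02, but 0.0005 under quantile normalization and 0.028 under median-of-ratios scaling.

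The CDK inhibitors, which restrain the cycle, had differences in both directions. Of 6 tested, 4 were higher and 2 lower, with a median of 0.31. Cdkn1a, which encodes p21, had 96.5, 64.9 and 28.7 TPM in WT TAMs against 156, 98.0 and 83.2 TPM in C5aR-/- TAMs. It was highest in TAM 1 of either group, the groups overlapped, and the difference was 0.93 (SE 0.45, adjusted p = 0.408, and 0.45 without WT TAM 3). With the replicate block in limma, the unadjusted p of Cdkn1a was 0.0095 (adjusted p = 0.202), against 0.0826 without it. Cdkn1b, which encodes p27, was at 52.7, 56.6 and 67.9 TPM in WT TAMs and at 73.3, 76.2 and 70.3 TPM in C5aR-/- TAMs. Its groups did not overlap, at a difference of 0.31 (SE 0.14, adjusted p = 0.364). Cdkn2a, which encodes p16 and ARF, was at 4.30, 1.28 and 1.40 TPM in WT TAMs and at 0.77, 0.31 and 0.40 TPM in C5aR-/- TAMs. All knockout libraries were below all WT libraries, with WT TAM 1 far above the rest, at a difference of -1.05 (SE 0.38, adjusted p = 0.297). It was -0.66 without WT TAM 1 and -1.89 with 0.1 added in place of 1. With quantile normalization it was -0.94 (unadjusted p = 0.0706 in limma), short of both the p and the 2-fold limit. Cdkn2c, the INK4-type inhibitor p18, was at 39.8, 48.96 and 60.2 TPM in WT TAMs and at 46.6, 69.8 and 73.7 TPM in C5aR-/- TAMs (difference 0.34, and 0.19 to 0.54 with 1 library left out). Cdkn2d, the related p19, was at 27.4, 18.02 and 18.6 TPM in WT TAMs and at 21.3, 29.6 and 28.6 TPM in C5aR-/- TAMs (difference 0.31, and 0.21 to 0.49). Both overlapped between groups. Cdkn1c, which encodes p57, was at 1.2, 3.28 and 5.54 TPM in WT TAMs and at 2.68, 1.54 and 2.74 TPM in C5aR-/- TAMs (difference -0.27, and -0.69 to 0.092 with 1 library left out). Cdkn2b, at 0.24, 0.30 and 0.36 TPM in WT TAMs and at 0.27, 0.05 and 0.21 TPM in C5aR-/- TAMs, was under the limit on low TPM and was not tested.

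Of the factors upstream, the RB family had 1 of 3 genes higher (median -0.03) and the E2F and MuvB factors 8 of 15 (median 0.07). Foxm1 and Mybl2, the factors of the mitotic program, were the 2 of them at an unadjusted p under 0.05 in the higher direction. Foxm1 had 20.2, 20.6 and 28.8 TPM in WT TAMs against 27.4, 37.5 and 72.1 TPM in C5aR-/- TAMs (difference 0.85, adjusted p = 0.344, and 0.47 without C5aR-/- TAM 3). Mybl2, which encodes B-MYB, was at 4.11, 3.76 and 5.17 TPM in WT TAMs and at 4.97, 8.86 and 9.64 TPM in C5aR-/- TAMs (difference 0.69, adjusted p = 0.332). In both, C5aR-/- TAM 1 was below the highest WT library. In the lower direction Tfdp2 had an unadjusted p under 0.05. Tfdp2, Lin52 and Rbl2 were lower without overlap (12.5% of all genes were), and 0 genes of either list were higher without overlap.

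Histone genes were taken by the start of their symbols, to cover the clustered genes that are transcribed in S phase. Some linker histone genes outside the clusters can share these starts, and which genes carried the sum was not examined. Values were summed because many clustered copies are nearly the same, so that reads may have been divided between them. The 71 genes summed to 876, 844 and 859.6 TPM in WT TAMs and to 1355, 1585 and 1102 TPM in C5aR-/- TAMs. All knockout libraries were above all WT libraries, and C5aR-/- TAM 3, the highest for most of the 49 genes, was the lowest of the knockout libraries here. Most messages of the clustered genes end without a poly(A) tail, so poly(A) selection captures a part of them.

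Markers of other cell types were set beside the 49 genes. For the marker counts here and in the next paragraph, the shares of all genes are 44.5% higher, 8.84% higher without overlap and 12.5% lower without overlap. The summed neutrophil genes were lower in all C5aR-/- libraries than in all WT libraries. These 7 genes, led by S100a9, summed to 944, 2310 and 628 TPM in WT TAMs and to 213, 389 and 31.0 TPM in C5aR-/- TAMs. All 6 tested were lower, 5 of them without overlap, and Ly6g, the gene of the antigen used to gate neutrophils out, was listed at 0 in at least 1 library. Mast cell genes, led by Kit, summed to 101, 82.6 and 136 TPM in WT TAMs and to 59.4, 73.6 and 87.8 TPM in C5aR-/- TAMs. In C5aR-/- TAMs most of the sum was Kit. The 5 genes did not overlap between groups, with Kit higher by 1.13 and 4 lower, by 2.68 for Cma1 to 3.89 for Mcpt4 (adjusted p in limma from 0.0666 to 0.0922 over the 5). Cpa3, Mcpt4 and Tpsb2 were listed at 0 in at least 1 library. Mcpt4 reached the 1 TPM needed for testing in WT libraries alone, and Cpa3 and Tpsb2 in WT libraries and C5aR-/- TAM 1. Mesothelial genes, led by Wt1, summed to 1007, 1158 and 1391 TPM in WT TAMs and to 1058, 956 and 736 TPM in C5aR-/- TAMs. Of them 5 of 6 were lower, 3 without overlap, and Msln was higher without overlap, by 0.88. Of the macrophage genes 8 of 12 were higher, with 1 without overlap, and of the epithelial genes 2 of 6 tested were higher, with 1 without overlap, Krt8. The part of these cell types in the higher replication and mitosis genes was not tested.

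The remaining marker lists overlapped between groups in their sums. Fibroblast genes, led by Dcn, summed to 404, 467 and 605 TPM and to 557, 439 and 473 TPM, with Lum listed at 0 in at least 1 library. Of 5 tested 1 was higher (median -0.38). This was Col1a1, with knockout libraries on both sides of WT, and Col1a2 was lower without overlap, by 1.87. B cell genes, led by Cd79a, summed to 140.2, 166 and 33.7 TPM and to 168, 54.6 and 9.16 TPM. T cell genes, led by Trbc2, summed to 25.5, 76.1 and 116 TPM and to 85.3, 51.5 and 19.0 TPM. NK cell genes, led by Klrb1c, summed to 1.33, 3.60 and 4.87 TPM and to 2.86, 3.25 and 0.79 TPM. Dendritic cell genes, led by Ccr7, summed to 40.3, 43.5 and 38.3 TPM and to 69.0, 55.7 and 29.0 TPM. Endothelial genes, led by Pecam1, summed to 13.4, 18.8 and 15.9 TPM and to 28.8, 18.8 and 11.9 TPM.

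The 2 phases differ in the letters of their promoters, which are shown because E2F factors and the MuvB complex act through short DNA elements of these genes. Promoter windows, from 250 bases before to 50 bases after the start, were taken from RefSeq (GRCm38.p6) and matched 40 of the 49 genes. No entry was used for Mcm4, Gins1, Gins2, Pole, Ccne2, Ccna2, Aurkb, Kif20a and Tpx2. Both strands were searched for the E2F letters TTTCCCGC, TTTGGCGC, TTCCCGCC and TTTCGCGC (TTTCCCGC and TTCCCGCC can overlap), for the CHR letters TTTGAA and for CCAAT. E2F letters stood in 11 of 22 S phase genes (50%), in 1 of 18 G2/M genes (5.56%) and in 4.0% of all 27025 genes with a window. The CHR letters stood in 72.2% of G2/M genes, 13.6% of S phase genes and 20.2% of all genes. CCAAT stood in 88.9%, 63.6% and 41.1%. CHR letters and CCAAT were found together in 13 of 18 G2/M genes (72.2%), 9.09% of S phase genes and 7.97% of all genes. All genes here include noncoding ones. Among the 17491 protein-coding genes the shares were 5.2% for E2F letters, 18.5% for CHR letters, 42.3% for CCAAT and 7.4% for CHR letters with CCAAT. The E2F share of G2/M genes was near that of protein-coding genes. The 1 G2/M gene with E2F letters was Cdk1, which also had both other elements. A match is a description, not a site or a cause.

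The promoters of 4 genes show these arrangements, each printed 5′ to 3′ on the strand of its gene, with matches to the E2F letters, the CHR letters and CCAAT on either strand in capitals. They are Mcm5 (chr8:75109259-75109558, plus strand) and Cenpa (chr5:30666636-30666935, plus strand), which had the smallest p of the S phase and of the G2/M genes, and the markers Mki67 (chr7:135716330-135716629, minus strand) and Ccnb1 (chr13:100786437-100786736, minus strand). Mcm5 holds 2 overlapping E2F matches and 3 CCAAT, Cenpa 1 CHR and 2 CCAAT, Mki67 2 CHR and 3 CCAAT, and Ccnb1 2 CCAAT and 0 CHR.
Mcm5: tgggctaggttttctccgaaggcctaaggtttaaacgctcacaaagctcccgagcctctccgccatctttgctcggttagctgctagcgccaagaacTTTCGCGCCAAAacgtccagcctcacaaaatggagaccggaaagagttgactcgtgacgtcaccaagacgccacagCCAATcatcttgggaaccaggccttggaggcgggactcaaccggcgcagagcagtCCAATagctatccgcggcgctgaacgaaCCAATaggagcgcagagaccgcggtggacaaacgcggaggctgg
Cenpa: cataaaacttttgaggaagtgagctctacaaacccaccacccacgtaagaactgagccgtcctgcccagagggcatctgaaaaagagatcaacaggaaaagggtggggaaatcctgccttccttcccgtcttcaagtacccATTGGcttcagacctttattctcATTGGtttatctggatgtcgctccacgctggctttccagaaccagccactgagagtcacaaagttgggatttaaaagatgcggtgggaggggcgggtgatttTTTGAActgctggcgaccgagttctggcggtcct
Mki67: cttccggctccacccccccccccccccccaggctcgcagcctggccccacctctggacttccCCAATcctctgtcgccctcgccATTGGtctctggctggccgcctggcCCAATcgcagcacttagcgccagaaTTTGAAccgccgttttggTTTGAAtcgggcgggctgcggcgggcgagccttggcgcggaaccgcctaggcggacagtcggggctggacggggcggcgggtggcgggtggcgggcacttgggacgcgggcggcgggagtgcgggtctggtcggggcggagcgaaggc
Ccnb1: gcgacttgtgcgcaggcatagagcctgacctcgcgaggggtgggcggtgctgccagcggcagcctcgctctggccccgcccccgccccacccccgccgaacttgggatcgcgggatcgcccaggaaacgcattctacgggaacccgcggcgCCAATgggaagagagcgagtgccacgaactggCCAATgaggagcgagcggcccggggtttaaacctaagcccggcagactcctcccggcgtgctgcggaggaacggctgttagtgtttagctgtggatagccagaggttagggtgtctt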

How the data were processed

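Per the submitters' processing notes and the study's methods, the authors trimmed reads with fastp, aligned them with HISAT2 to mm10, and assembled transcripts with StringTie and gffcompare. The notes also list RSEM without a role, the methods name edgeR and DESeq2 for differential expression, and versions are not given in the sources used here. The authors deposited TPM per gene for the 6 libraries and the mean TPM of each group, and those 2 pooled columns were not used. TPM holds no counts, so the count models edgeR and DESeq2 were not run here.

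Libraries were grouped by their labels. Symbols came from GENCODE M21 (GRCm38), and where a symbol had more than 1 ID, the ID most abundant on average was used. Genes that reached 1 TPM in 3 or more libraries were fitted in R 4.3.3 with limma 3.58.1 after adding 1 to the TPM and taking log2 (lmFit, eBayes with trend, two-sided, Benjamini-Hochberg). The fit was also run on simulated data with the same spread for all genes in both groups and with changes larger than those of the members. That run does not cover groups of unequal spread or changes of the members' size. Tables and plots were made in Python 3.11.15 (numpy 2.4.6, pandas 2.3.3, scipy 1.17.1, matplotlib 3.10.9). Groups were compared at an adjusted and at an unadjusted p under 0.05, both with a 2-fold difference or more.

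The members and lists were chosen with earlier results of these data known. Genes named with every library's value were, per role, the most abundant member and the one with the smallest unadjusted p, then Mki67, Top2a, Pcna, Ccnb1, Cdk1 and C5ar1. Of the other cell cycle lists they were at most 5 higher and 5 lower genes past the unadjusted p and the 2-fold limit, and the CDK inhibitors and G1 cyclins and CDKs. Further genes with every library's value, Orc6, Pttg1, Foxm1 and Mybl2, were chosen after their values were seen. Marker lists covered macrophages, epithelial tumor cells, mesothelial cells, T cells, B cells, NK cells, neutrophils, fibroblasts, endothelial cells, erythroid cells, mast cells and dendritic cells. Tried as alternatives were quantile normalization, scaling by median of ratios, adding 0.1 in place of 1, a minimum of 5 TPM or none, eBayes without trend, a block for the replicate number, and each library left out in turn.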

Additional observations from a re-analysis of the deposited data

How the results depend on the processing

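Of the 16 named members, 14 had the same sign under all of the 13 alternatives that tested them, and of all 31 named genes, C5ar1 among them, 24 did, where Cdkn2a and Cdkn1c were not tested at a minimum of 5 TPM. Members past the unadjusted p and the 2-fold limit were 0 under each alternative. With 1 library left out, the S phase and G2/M medians were from 0.29 to 0.58 and from 0.20 to 0.39. The S phase genes above 0 were then 25 to 27 of 27, with Cdc6, Ccne2 or Rrm1 below 0. Over the whole table, the count at an adjusted p under 0.05 with that fold change was 0, against 2 with eBayes without trend and 0 to 356 with 1 library left out (356 without C5aR-/- TAM 1). The 733 genes at the unadjusted p were 475 at a minimum of 5 TPM, which tests fewer genes, and 567 to 1266 with 1 library left out. The other cell cycle genes past it were 3, and 0 to 6 with 1 library left out.

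The 7 named genes that changed sign were Top2a, Rrm1, Ccnd1, Ccnd2, Ccnd3, Cdk2 and Cdkn1c, and the cause was not tested. Under quantile normalization and median-of-ratios scaling Top2a was at 0.035 and 0.037, Ccnd1 at 0.034 with either, and Cdk2 at 0.0005 and 0.028. With 1 library left out the ranges were -0.18 to 0.20 for Top2a, -0.014 to 0.14 for Rrm1, -0.10 to 0.099 for Ccnd1, -1.07 to 0.33 for Ccnd2, -0.32 to 0.014 for Ccnd3, -0.085 to 0.072 for Cdk2 and -0.69 to 0.092 for Cdkn1c.

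The replicate numbers were not taken as a pairing: deviations of same-numbered libraries correlated at 0.19, -0.01 and 0.27 across genes. With the replicate block, 15 members were higher at an unadjusted p under 0.05 and any fold change, against 13 (6.55% and 6.06% of all genes), and the phase medians were 0.47 and 0.30 as before. The whole table then had 811 genes past the unadjusted p and fold. C5aR-/- TAM 1 correlated best with WT TAM 1 and C5aR-/- TAM 3 with WT TAM 3. WT TAM 2 and C5aR-/- TAM 2 did not correlate best with each other. What depth limits for genes of low TPM could not be tested from these values.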
